A study of Saccharomyces cerevisiae with 6 samples.

Results

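The nuclear genes of the yeast respiratory chain were examined in Hi-C maps, to ask whether genes whose products work in the same complexes lie near each other in the nucleus. The set holds 40 of 6002 annotated nuclear protein-coding genes. The rule takes genes by function, from the names of the subunits, and uses no contact value, though it was set with earlier results of these data known. The set comprises 3 NADH dehydrogenases, 4 subunits of complex II, 9 of complex III, 2 forms of cytochrome c, 9 subunits of complex IV and 13 of ATP synthase. Each gene was placed by its midpoint in a 10 kb bin. The 40 genes fell in 38 bins, since COX4 shared a bin with COX13 and SDH1 shared one with SDH3.

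Hi-C joins DNA ends that lie close together in fixed nuclei and counts the joined pairs by sequencing. Both maps came from 1 strain, yMD291, grown under methionine depletion and fixed with formaldehyde, and chromatin was cut with DpnII. The strain is MATa and carries tor1-1, bar1 and fpr::NAT, LacO repeats inserted on chromosome XV at 497047 and TetO repeats at 834487 of the same chromosome, the auxotrophic or resistance alleles ade2-1, can1-100, ura3-1 and trp1-1, mutant alleles of leu2 and his3, and LacI and tetR driven by REV1pr, fused to GFP and mCherry at HIS3 and without these tags at ADE2. No map of another medium was used, so values can be compared between loci and between the 2 replicates, but not between growth conditions. The other 4 samples of the series were not analysed here.

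Electrons from NADH and succinate enter the yeast chain through single-polypeptide NADH dehydrogenases and complex II, pass through complex III and cytochrome c to oxygen at complex IV, and the proton gradient so made drives ATP synthase. Most subunits are encoded in the nucleus and a few in mitochondrial DNA. Many of the nuclear genes are activated by the Hap2/3/4/5 complex, which binds the sequence CCAAT, when cells respire rather than ferment.

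The 250 bases before and 50 bases after each gene start were searched in the R64 reference for CCAAT on either strand, which reads ATTGG on the printed strand when it lies on the other. Matches were found in 33 of 40 members (82.5%) and in 2601 of 6001 windows of all protein-coding genes (43.3%). The 7 members with no match were ATP1, COX4, COR1, CYT1, NDE2, CYC1 and CYC7. A match is only a run of letters, and no match says only that these letters are not in the window. Windows are shown for 6 genes on which the results below turn, 5′ to 3′ on the strand of the gene, with CCAAT and ATTGG in capitals (in ATP2 the first 2 matches overlap).
COX6, chrVIII:209455-209754, plus strand: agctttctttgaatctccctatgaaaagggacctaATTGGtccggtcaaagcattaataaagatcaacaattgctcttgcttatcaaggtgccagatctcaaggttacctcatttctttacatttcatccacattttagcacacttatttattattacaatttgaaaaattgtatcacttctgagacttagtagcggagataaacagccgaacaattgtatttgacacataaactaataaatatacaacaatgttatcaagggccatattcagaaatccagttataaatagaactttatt
COX7, chrXIII:779078-779377, minus strand: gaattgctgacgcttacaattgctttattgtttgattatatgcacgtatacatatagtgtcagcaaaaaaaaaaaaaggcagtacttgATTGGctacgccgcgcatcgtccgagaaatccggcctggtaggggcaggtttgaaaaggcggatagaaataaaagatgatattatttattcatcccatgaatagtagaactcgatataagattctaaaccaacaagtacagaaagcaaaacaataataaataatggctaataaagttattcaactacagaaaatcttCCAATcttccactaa
RIP1, chrV:107010-107309, plus strand: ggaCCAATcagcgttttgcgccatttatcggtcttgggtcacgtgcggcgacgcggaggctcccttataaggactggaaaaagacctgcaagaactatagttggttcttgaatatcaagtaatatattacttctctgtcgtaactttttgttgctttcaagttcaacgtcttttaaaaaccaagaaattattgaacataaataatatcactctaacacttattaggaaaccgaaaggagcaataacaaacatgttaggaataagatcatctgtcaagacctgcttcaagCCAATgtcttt
ATP2, chrX:647357-647656, plus strand: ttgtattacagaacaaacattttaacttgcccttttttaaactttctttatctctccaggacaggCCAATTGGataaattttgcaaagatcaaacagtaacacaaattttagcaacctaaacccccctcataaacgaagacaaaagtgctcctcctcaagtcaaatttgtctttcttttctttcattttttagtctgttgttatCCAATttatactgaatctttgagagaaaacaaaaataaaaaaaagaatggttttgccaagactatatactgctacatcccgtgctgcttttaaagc
COR1, chrII:135467-135766, minus strand: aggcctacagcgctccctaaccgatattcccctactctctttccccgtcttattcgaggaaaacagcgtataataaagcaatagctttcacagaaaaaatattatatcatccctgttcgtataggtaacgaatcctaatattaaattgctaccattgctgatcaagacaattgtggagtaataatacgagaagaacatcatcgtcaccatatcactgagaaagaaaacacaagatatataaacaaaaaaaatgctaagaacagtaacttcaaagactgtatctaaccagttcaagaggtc
CYC1, chrX:526085-526384, plus strand: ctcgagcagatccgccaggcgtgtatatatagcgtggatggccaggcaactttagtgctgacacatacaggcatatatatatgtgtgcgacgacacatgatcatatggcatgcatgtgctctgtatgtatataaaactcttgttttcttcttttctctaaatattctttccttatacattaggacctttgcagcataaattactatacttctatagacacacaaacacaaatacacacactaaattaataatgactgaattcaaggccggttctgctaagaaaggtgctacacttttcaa
COX6 and COX7 formed the member pair with the highest ratio, ATP2 and COR1 had the most contact with the other members, and RIP1 and CYC1 had the highest ratios with the bin of HAP4. Of these 6 windows, COR1 and CYC1 hold no match and ATP2 holds 3.

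The deposited signal was balanced within each map, and whole contacts were recovered from it. Replicate 1 held 1004871 contacts between chromosomes and replicate 2 held 931315, which is 1.52 and 1.41 per pair of bins. Contact is given as observed over expected (O/E). Between chromosomes, the expectation is the mean of all pairs whose bins have the same class of distance to the centromere and to the chromosome end. Within a chromosome it is the mean at the same distance. Bins were kept where a share of 0.5 or more of the trans partners carried signal in both maps, which left 1086 of 1216 nuclear bins and 36 of the 38 member bins. Intervals are 95% exact Poisson intervals on whole contacts and cover counting error only.

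Between chromosomes, the members contacted each other slightly more than the expectation, and so did their bins with the rest of the genome. Over the 582 pairs of member bins on different chromosomes, mean O/E was 1.08 and 1.10 in replicates 1 and 2 (1.09 ± 0.0125 SD, n = 2). The pairs held 2129 contacts against 2004 expected, a ratio of 1.06 (1.02 to 1.11). The same 36 bins with all other kept bins held 119284 contacts against 115042, a ratio of 1.04 (1.03 to 1.04), and mean O/E was 1.06 in both maps. Summed contacts give weight to pairs by their expectation, and the mean of ratios weights all pairs equally. The interval of the member pairs includes the ratio of the same bins with the rest. When the maps were balanced on contacts between chromosomes only, mean O/E of the member pairs was 1.03.

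No member pair was called on its own, at a depth where few pairs of any kind were called. Of the 582 pairs, 134 (23.0%) lay above 1 in both maps, against 20.4% of the 544303 pairs of all kept bins, and 168 (28.9%) lay below 1 in both, against 33.7%. Member pairs had 3.44 expected contacts each and all pairs 3.17, and a pair with more expected contacts is less often at 0, so these shares are not matched for depth. A one-sided exact Poisson test with Benjamini-Hochberg adjustment over all pairs called 0 of the 582, against 0.0408% of all pairs. At an unadjusted p under 0.05 there were 39 member pairs (6.70%), against 4.30% of all pairs. The same bins with all other kept bins gave 5.31% by that rule. O/E of the 2 maps correlated weakly over the member pairs (Pearson's r = 0.0539, Spearman's rho = 0.0853, 582 pairs that share bins and libraries), which is given as a description.

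**Figure D1:**
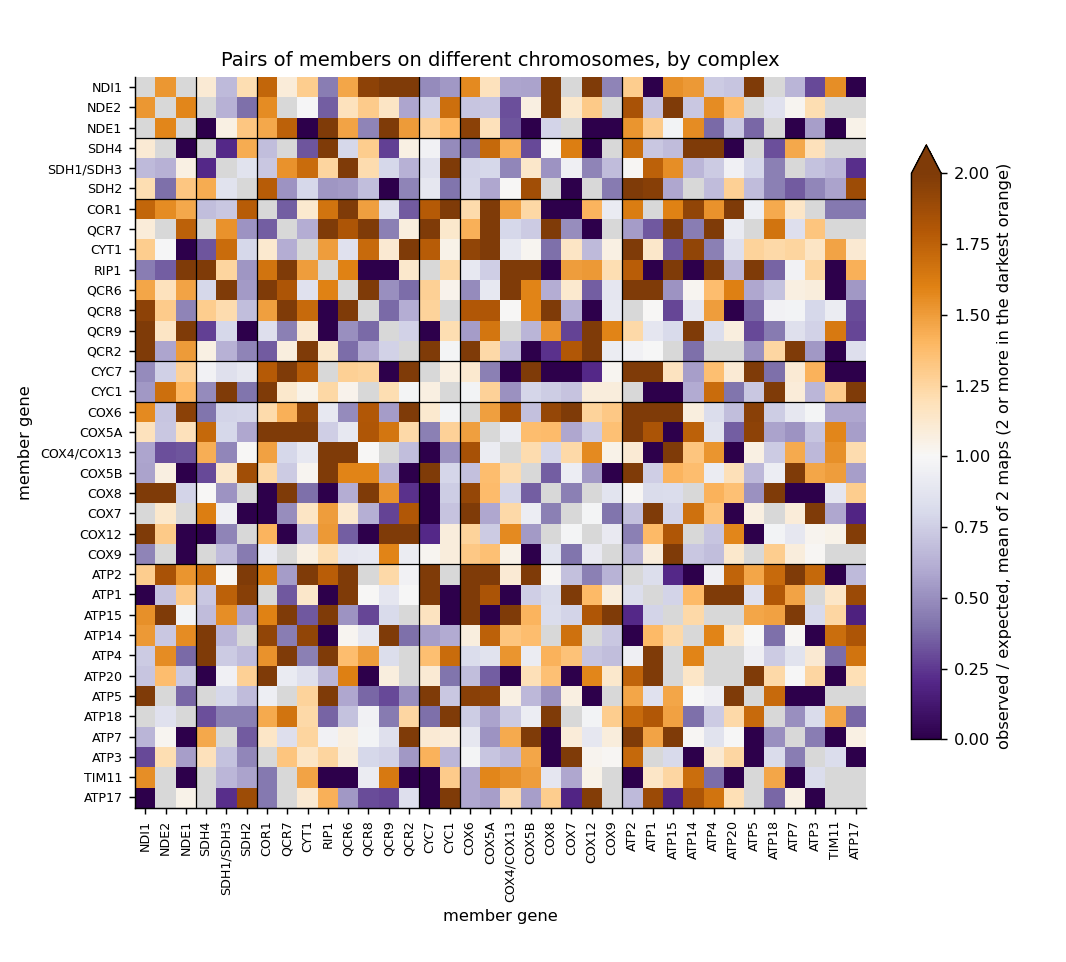
Each cell is the mean O/E over 2 maps of a pair of member bins on different chromosomes, with genes ordered by complex along both axes and black lines between complexes. Gray cells are pairs on the same chromosome or a bin with itself. High and low cells are scattered over all blocks, and mean O/E over the 582 pairs was 1.09.

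By complex, among combinations with 5 or more pairs, the 2 highest ratios in summed contacts involved complex III and the 3 lowest involved complex II. Pairs within a complex had O/E of 1.08 and 1.18 in the 2 maps (120 pairs, mean 1.13 ± 0.0739 SD, n = 2) and pairs between complexes 1.09 and 1.08 (462 pairs, 1.08 ± 0.00342). The difference is smaller than the spread of the within-complex value between maps. In contacts, the pairs within a complex gave 423 against 387 expected (1.09, 0.992 to 1.20), and the pairs between complexes gave 1706 against 1617 (1.05, 1.01 to 1.11).

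Among the 21 combinations of complexes, of which 18 held 5 or more pairs, the largest ratio in contacts among those 18 was between complex III and cytochrome c, its electron acceptor. The NADH dehydrogenases with each other were higher but had only 2 pairs, with 12 contacts against 7.76 (1.55, 0.799 to 2.70). The 14 pairs of complex III with cytochrome c had O/E of 1.42 and 1.47, with 78 contacts against 55.1 expected (1.41, 1.12 to 1.77). The NADH dehydrogenases and complex III followed, with O/E of 1.35 and 1.42 over 23 pairs and 102 contacts against 76.4 (1.34, 1.09 to 1.62). Both were read off as the highest of the combinations, so their intervals do not account for that choice. Contact with all kept bins of other chromosomes was 1.09 for CYC1 and 1.12 for CYC7, and from 0.969 (QCR2) to 1.17 (QCR6) over complex III. For the NADH dehydrogenases it was 1.14 (NDI1), 1.15 (NDE1) and 1.01 (NDE2). This general contact is not taken out of either ratio. Within complex III, 28 pairs gave O/E of 1.22 and 1.04 (1.18, 0.961 to 1.44 in contacts). Within complex IV, 27 pairs gave 1.11 and 1.17, and within ATP synthase 59 pairs gave 0.999 and 1.25. The intervals within complex III, within complex IV (1.09, 0.881 to 1.33) and within ATP synthase (1.06, 0.919 to 1.22) overlap, and all include 1. Cytochrome c with complex IV, the next step of electron transfer, gave 0.755 and 0.808 over 16 pairs, with 60 contacts against 68.0 (0.882, 0.673 to 1.14), the lowest mean O/E (0.782) of combinations with 5 or more pairs. The lowest ratios in contacts were those of complex II with the NADH dehydrogenases (24 contacts against 31.2, 0.770, 0.493 to 1.15) and with complex IV (67 against 81.7, 0.820, 0.636 to 1.04).

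**Figure D2:**
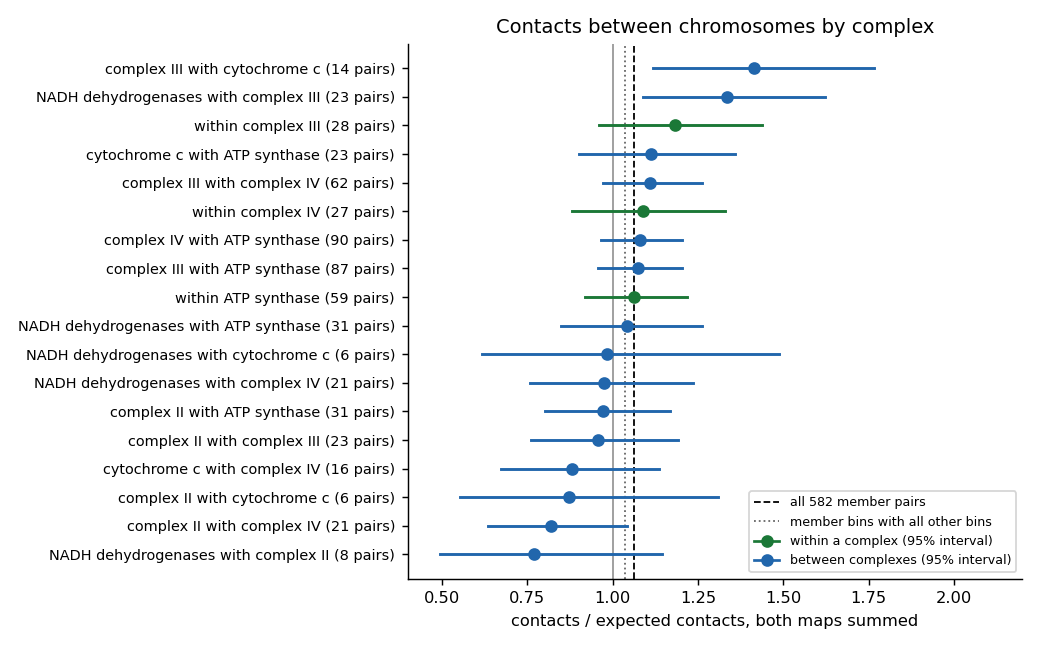
Ratio of contacts to expected contacts between chromosomes (x axis) for each combination of complexes with at least 5 pairs, both maps summed, with 95% Poisson intervals; green is within a complex and blue between complexes. Complex III with cytochrome c (1.41) and with the NADH dehydrogenases (1.34) lie to the right of 1 with their intervals, and the interval of every other combination includes 1. The general contact of the bins with all kept bins of other chromosomes is not taken out.

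The NADH dehydrogenases oxidize NADH on the inner face (NDI1) or outer face (NDE1, NDE2) of the inner membrane. Each gene's contact with all members on other chromosomes was summed. NDI1, near the left end of chromosome XIII, had O/E of 1.13 and 1.18 with the members. NDE2 on chromosome IV had 1.15 and 1.06, and its paralog NDE1 on chromosome XIII had 0.989 and 0.979. Median O/E with the member set over all 1086 kept bins was 1.03, with 5th and 95th percentiles of 0.777 and 1.30. All 3 lay inside this range. The paralogs NDE1 and NDE2 contacted each other 3 and 2 times against 3.14 expected in all (O/E 1.86 and 1.31). Their bins also hold the paralogs RPL13B and RPS16A, and RPL13A and RPS16B, and share 5 words of 50 bases, so reads of the shared words could have been placed in either.

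Complex II, succinate dehydrogenase, links the chain to the TCA cycle. Its 3 bins had 315 contacts with the set against 350 expected over 92 pairs (0.899, 0.803 to 1.00), an interval that just includes 1. SDH2, the iron-sulfur subunit, had the lowest value of any member with O/E of 0.692 and 0.923, 110 contacts against 137 (0.804, 0.660 to 0.968). The bin of SDH1, the flavoprotein, and SDH3, a membrane anchor, had 0.796 and 1.05 (0.920, 0.765 to 1.10). SDH4, the other anchor, had 1.07 and 0.910 (0.993, 0.795 to 1.22). The maps disagreed on the side of 1 for these last bins, and only the interval of SDH2 lay below 1. SDH2 also had low contact with all kept bins of other chromosomes (0.844).

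Complex III, the cytochrome bc1 complex, held 3 of the 5 members with the highest O/E with the set, and ATP synthase held the other 2. Of the 36 kept member bins, complex III has 8 and ATP synthase 12. COR1 (chrII:134143-135516), a core protein, had O/E of 1.37 and 1.35, with 152 contacts against 112 expected (1.36, 1.15 to 1.59), and 2.39% of all kept bins were as high. QCR7 (chrIV:1496165-1496548) had 1.44 and 1.00 (120 contacts against 97.9), and CYT1, cytochrome c1 (chrXV:447439-448368), had 1.18 and 1.21 (161 against 135). Of all kept bins, 11.4% were as high as QCR7 and 15.3% as high as CYT1. COR1 was the member whose maps lay closest together among the high ones. QCR6 gave 1.15 and 1.11, and QCR8 gave 0.927 and 1.28. RIP1, the Rieske iron-sulfur protein, gave 1.37 and 0.884. For QCR8 and RIP1 the maps were on opposite sides of 1, and this also held for QCR9, with 1.12 and 0.760. QCR2, the other core protein, had 0.893 and 0.996. Over the 237 pairs of complex III with the set, 900 contacts stood against 795 (1.13, 1.06 to 1.21), with O/E of 1.24 and 1.06. Divided by the contact of each bin with all kept bins of other chromosomes, COR1 was at 1.21, QCR7 at 1.05, CYT1 at 1.03, QCR6 at 0.964 and QCR9 at 0.865. By this measure the 5 highest members were COR1, ATP2, ATP20, COX5A and COX8, so COR1 alone was from complex III.

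The genes of cytochrome c, CYC1 for the major form and CYC7 for the form made in low oxygen, had intermediate values. CYC1 gave 0.916 and 1.24 with the members and CYC7 gave 1.10 and 1.07. With each other they had 4 contacts in each map against 7.53 expected in all, an O/E of 1.05 and 1.08. This value depended on the distance classes, and O/E was 2.14 against the mean of all pairs between chromosomes. It was 0.857 with the balance on contacts between chromosomes only. The pair has the most expected contacts of the 3 paralog pairs and is the best measured of them.

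Complex IV, cytochrome c oxidase, is built on a core encoded in mitochondrial DNA with the nuclear subunits around it. COX6 (chrVIII:209705-210151) was the highest of them with 1.13 and 1.26, 191 contacts against 160.3 (1.19, 1.03 to 1.37). The other bins ranged from 0.924 for COX9 to 1.06 for COX5A in both maps together. COX5A and COX5B, which encode alternative forms of subunit V used in high and low oxygen, had 1.05 and 1.07, and 0.809 and 1.30. As a pair, COX5A and COX5B had 2 contacts in each map against 2.93 expected (O/E 1.30 and 1.44). The bin of COX4 and COX13 gave 1.01 and 1.08, that of COX8 1.04 and 1.02, and that of COX7 0.986 and 0.965. COX12 gave 0.929 and 1.02, and COX9 0.859 and 0.994. Apart from COX6, each of these intervals included 1.

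ATP synthase held both high and low members. ATP2 (chrX:647607-649142), the catalytic beta subunit, had O/E of 1.24 and 1.37, with 178 contacts against 136 (1.30, 1.12 to 1.51). ATP1 (chrII:37053-38690), the alpha subunit, had 1.10 and 1.40, with 100 contacts against 80.3. ATP2 and ATP1 were both among the 5 highest of the members. Of all kept bins, 4.79% were as high as ATP2 and 9.58% as high as ATP1. Divided by contact with all kept bins of other chromosomes, ATP1 was at 1.12, and 23.0% of kept bins were as high. ATP15, the epsilon subunit, had 1.23 and 1.16, ATP14 had 1.29 and 1.04, and ATP4, the stator subunit b, had 1.07 and 1.22. ATP3, the gamma subunit of the central stalk, had 1.02 and 0.807. At the low end, ATP17 had 0.843 and 0.782 (67 contacts against 82.4, 0.813, 0.630 to 1.03) and TIM11, subunit e, had 0.816 and 0.954 (75 against 85.2). Both lie on the right arm of chromosome IV and were below 1 in both maps, though their intervals include 1. ATP17 and TIM11 also had low contact with all kept bins of other chromosomes (0.857 and 0.902). Divided by it, they were at 0.949 and 0.976. ATP5, the oligomycin sensitivity subunit, had 1.06 and 0.979, ATP20 1.07 and 1.02, ATP18 0.982 and 1.00, and ATP7 0.840 and 1.05.

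**Figure D3:**
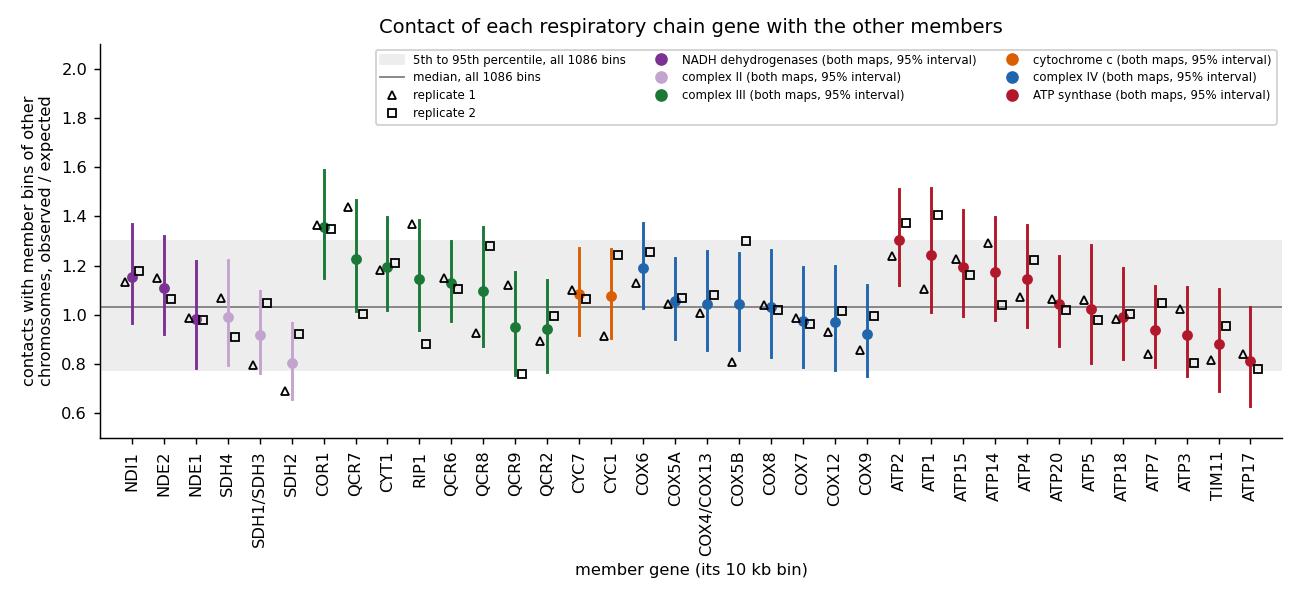
O/E of contact with member bins of other chromosomes (y axis) for each member bin (x axis), grouped by complex. Filled points are both maps together with 95% Poisson intervals, triangles are replicate 1, squares are replicate 2, and the gray band spans the 5th to 95th percentile of all 1086 kept bins (0.777 to 1.30) around their median (1.03). Of the 36 bins, COR1 (1.36) lies above the band, ATP2 lies at its upper edge and the other 34 lie inside it.

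Across the 36 member bins, the median O/E with the set was 1.04, against 1.03 over all kept bins. It ranged from 0.804 to 1.36, and over all kept bins from 0.536 to 2.19. In 12 of the 36 bins, the map of replicate 1 or of replicate 2 alone lay on the other side of 1 from the value of both. Values of the 2 maps correlated with r = 0.215 (rho = 0.261) over the 36 bins, which share their partners. Divided by each bin's own contact with all kept bins of other chromosomes, the median was 1.02, COR1 was at 1.21 and ATP2 at 1.17. By this measure 5.89% of all kept bins were as high as COR1 and 11.3% as high as ATP2, and the lowest was NDE1 at 0.856. The order of the members therefore changed with the general contact of their bins, and SDH2 moved to 0.952. Members with no CCAAT in the window had a median O/E with the set of 1.11 (7 bins, 1.04 to 1.36), those with 1 match 1.01 (14 bins, 0.813 to 1.19) and those with more 1.04 (17 bins, 0.804 to 1.30). The ranges overlap, and a shared bin counts in each class that its genes fall in.

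The pairs with the highest O/E that were above 1 in both maps rested on few contacts. COX6 and COX7, subunits of complex IV on chromosomes VIII and XIII, had 6 and 2 contacts against 1.69 expected in all (O/E 6.88 and 2.44, mean 4.66), and 0.145% of all pairs were as high. Their adjusted p in the exact Poisson test over all pairs was 0.286, and mean O/E was 1.48 over 3 by 3 bins around the pair and 1.97 with no distance classes. ATP7 and ATP15 had 1 and 3 contacts (O/E 1.91 and 6.12), and ATP5 and ATP20 had 2 and 1 (4.75 and 2.74). All 3 lie within a complex, and none passed the test. The next were RIP1 with NDE1 (5.27 and 2.02, 3 contacts and 1), ATP1 with COX6 (1.62 and 5.44, 2 contacts and 6) and ATP5 with RIP1 (3.16 and 3.78, 1 contact each). COX6 with ATP15 (3.18 and 3.42, 3 contacts each) and QCR7 with CYC7 (4.12 and 2.13, 4 contacts and 2) completed the 8 highest. COX6 was in 3 of these 8 pairs and RIP1, ATP5 and ATP15 were in 2 each. ATP5 with ATP20, ATP5 with RIP1 and ATP7 with ATP15 fell below 1 when the expectation had no classes of distance (0.899, 0.832 and 0.965). ATP5 with ATP20, a gene that spans a bin edge, had no contact when genes were placed by their start, and was at 0.706 over 3 by 3 bins. Among pairs with no contact in either map, the most was expected of TIM11 with QCR2 (4.92), ATP2 with ATP14 (4.82), TIM11 with ATP2 (4.69) and COX5B with QCR2 (3.81). Of the 582 pairs, 51 had no contact.

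Around the member pairs the ratio of contacts was lower than at the pairs, without a steady fall. At the pair itself it was 1.06, in the bins 10 kb away it was 1.04 (14764 contacts against 14234, 1.02 to 1.05), and at 20 and 30 kb it was 1.03. It was 1.01 at 40 kb (0.999 to 1.02) and at 50 kb, 1.02 at 60 kb and 0.994 at 70 kb (0.987 to 1.00). The mean of pair ratios was 1.08 and 1.10 at the pair and 1.06 and 1.04 in the bins 10 kb away. The interval at the pair overlaps that at 10 kb, and the mean of pair ratios at 50 kb (1.05) was as high as that at 10 kb (1.05).

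**Figure D4:**
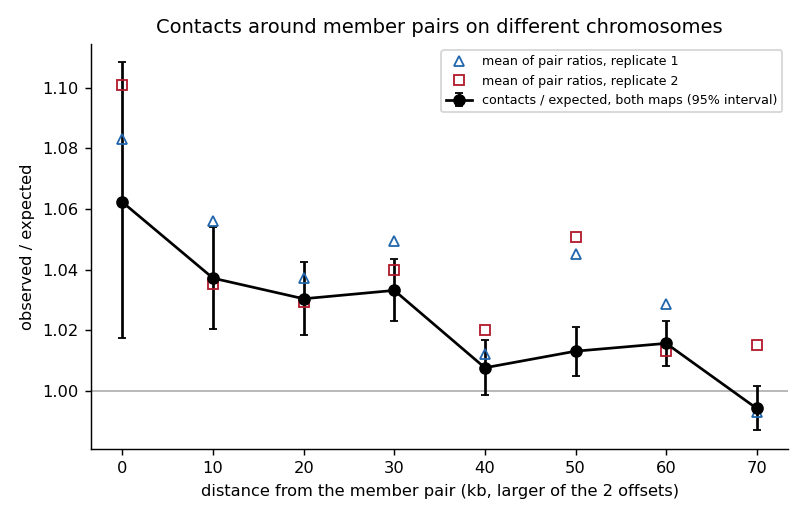
Ratio of observed to expected contacts (y axis) at the 582 member pairs and in square rings of bins around them, by the larger of the offsets along the 2 chromosomes (x axis, kb). Black points are both maps with 95% Poisson intervals, and open symbols are the mean of pair ratios in each map. The ratio was 1.06 at the pairs, 1.04 in the ring at 10 kb and 0.994 in the ring at 70 kb.

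The bins of ATP16, the delta subunit of ATP synthase (chrIV:443029-443511), and of QCR10, a small subunit of complex III (chrVIII:107826-108122), did not pass the filter, as 47.9% and 43.4% of their partners had signal in replicate 2. They lie nearest to a centromere of all members, with bin centres 4.77 and 0.645 kb away. Yeast centromeres are gathered at the spindle pole body. As deposited, the bins contacted the kept members less than the expectation, with O/E of 0.587 and 0.764 for ATP16 (64 contacts against 98.1) and 0.548 and 0.785 for QCR10 (58 against 92.6). With each other they had 79 contacts. Against the mean between chromosomes, 3.39 were expected, which gave O/E of 25.5 and 20.8. Against pairs of the same class next to centromeres 34.3 were expected, which gave 2.53 and 2.04. With no filter on bins, this was the only member pair called by the exact Poisson test adjusted over all pairs (adjusted p = 2.6e-07). The share of all pairs called under that setting was not counted. The class spans 0 to 20 kb from a centromere, and distance inside it was not matched. The call therefore does not set this pair apart from other pairs as close to centromeres.

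Within chromosomes, 48 pairs of member bins lay 20 kb or more apart. Mean O/E was 1.17 and 0.948 in replicates 1 and 2 (1.06 ± 0.155 SD, n = 2), on either side of 1. In summed contacts the pairs gave 909 against 1007 expected (0.903, 0.845 to 0.964), and without the pair of NDE2 and COX9 they gave 717 against 712 (1.01, 0.935 to 1.08). That pair thus decided the summed value. Of the 48 pairs, 11 (22.9%) were above 1 in both maps, against 28.1% of the 19249 pairs of all kept bins at the same distances, and 15 (31.2%) were below 1 in both, against 39.2%. Pairs on the same arm had O/E of 1.22 and 0.874 (22 pairs) and pairs on opposite arms 1.13 and 1.01 (26 pairs). Over all kept pairs, O/E was 0.943 on the same arm and 1.10 on opposite arms. Neither group of members was separated from these levels beyond the spread between maps.

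The closest members were well covered, and some of them had less contact than their distance gives. NDE2 and COX9 lie 30 kb apart on chromosome IV and had 100 and 92 contacts against 295 expected in all. O/E was 0.653 and 0.648 in replicates 1 and 2 (0.650, 0.562 to 0.749), and 4.73% of the 972 kept pairs at 30 kb were as low. CYC7 and RIP1, 30 kb apart on chromosome V, had 108 and 86 contacts against 228 (O/E 0.891 and 0.807, 0.736 to 0.980), and 25.4% of pairs at 30 kb were as low. The deficit of NDE2 and COX9 was nearly equal in the 2 maps. Against pairs of their own chromosome within 2 bins of the same distance, NDE2 with COX9 was at 0.361 and CYC7 with RIP1 at 0.472. At 30 kb that expectation averages distances of 10 to 50 kb. ATP5 and TIM11 at 60 kb had 36 and 33 contacts against 73.3 (0.908 and 0.979, or 0.770 against pairs of the same chromosome), and NDI1 and ATP18 at 80 kb had 41 and 18 against 49.1 (1.61 and 0.759). The last pair differed between maps more than it differed from 1. COX4 and COX13, and SDH1 and SDH3, lie within 10 kb of each other, and a 10 kb map gives their contact no value of its own.

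Farther apart, the highest of the pairs above 1 in both maps was ATP5 with QCR7, 440 kb apart on the right arm of chromosome IV, with 11 and 5 contacts against 6.38 (O/E 3.28 and 1.65), and 3.72% of pairs at that distance were as high. ATP18 and COX7 on opposite arms of chromosome XIII had 6 and 4 contacts against 4.45 (2.78 and 1.74). QCR8 and ATP2, on opposite arms of chromosome X, had 4 and 6 against 4.64 (1.74 and 2.56, mean 2.15, or 1.38 against pairs of the same chromosome), and NDE2 with SDH4 had 9 and 3 against 5.81 (2.95 and 1.08). Each of the 4 was among the highest 7.30% of pairs at its distance. No contact was seen for COX9 with ATP17 (4.38 expected), NDE2 with ATP17 (4.22) or SDH2 with COX8 (3.79), and between 8.99% and 12.5% of pairs at those distances were as low.

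**Figure D5:**
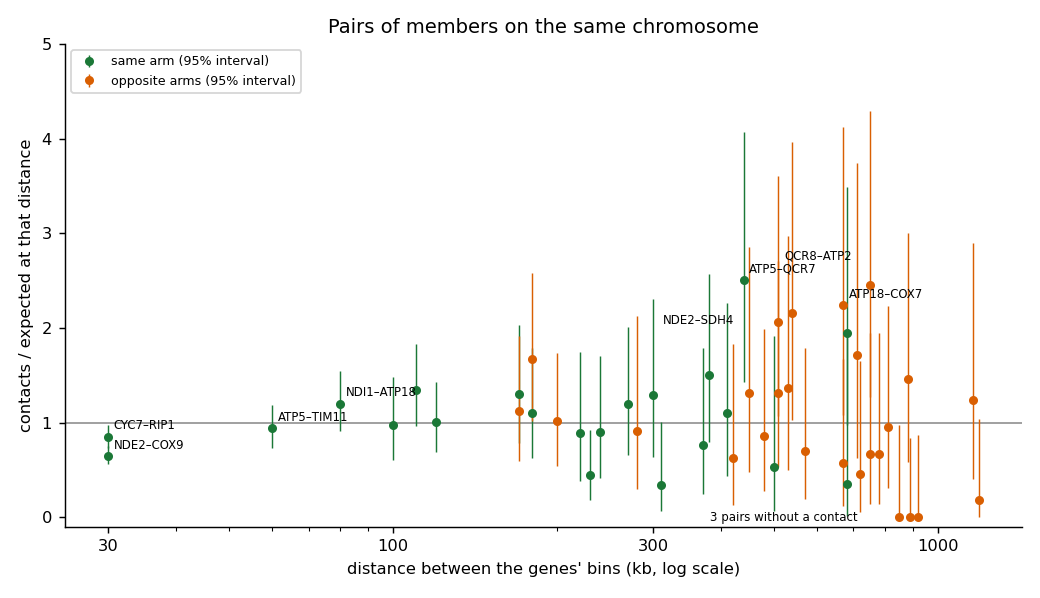
Ratio of contacts to those expected at the same distance (y axis) for the 48 member pairs within chromosomes, against their distance in kb (log scale), with 95% Poisson intervals; green pairs lie on the same arm and orange pairs on opposite arms. NDE2 with COX9 and CYC7 with RIP1 lie below 1 with their intervals (mean O/E of the 2 maps 0.650 and 0.849), and most intervals beyond 200 kb include 1.

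Other gene lists were set beside the members to see whether functionally related genes had more contact with them. Genes of the cytosolic ribosome, which translates in the cytoplasm, had O/E of 1.15 and 1.14 with the members (3585 pairs, 1.14 ± 0.00742 SD, n = 2), and assembly factors of the respiratory complexes had 1.17 and 1.12 (909 pairs, 1.14 ± 0.0361). Both values lay above the 1.09 of the members among themselves. Enzymes of the TCA cycle had 1.02 and 1.13, genes of glycolysis 1.12 and 0.999, the mitochondrial ribosome 1.06 and 1.03, and the Hap regulators with ROX1 0.968 and 1.16. These 4 means were below 1.09, by less than their own spread between maps except for the mitochondrial ribosome. Bins shared with the members were left out. Among themselves, all bins of the cytosolic ribosome had a mean O/E of 1.17 and those of the assembly factors 1.01. The general contact of the listed bins is not taken out of any of these values. Of the 38 member bins, 7 hold a cytosolic ribosomal protein gene, and without them mean O/E among the members was 1.08.

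Of the genes in these lists, HAP4 was among the 5 bins with the most contact with the members. HAP4 (chrXI:232227-233891) encodes the activation subunit of the Hap complex and the one whose amount follows the carbon source. Its bin had 130 contacts with the member bins against 89.3 expected, and O/E was 1.35 and 1.57 in replicates 1 and 2 (1.46, 1.22 to 1.73), and 0.921% of all kept bins were as high. HAP4 was picked as one of the highest, so this interval does not account for that choice. Its general contact with all kept bins was 1.13, the ratio of the 2 was 1.29, and 1.66% of kept bins were as high by that ratio. The bins 10 kb to the left and right of it had 1.20 and 1.09 with the members. RIP1 had 2 and 5 contacts with it against 1.05 expected (O/E 3.55 and 10.2, adjusted p = 0.156 in the exact Poisson test over all pairs), CYC1 had 5 and 3 against 2.16 (4.58 and 2.81) and ATP2 had 6 and 6 against 3.88 (3.05 and 3.14). In the same Poisson test, adjusted p was 0.516 for CYC1 and 0.372 for ATP2. No pair of HAP4 with a member was called, where 0.0408% of all pairs were. By complex, contacts of HAP4 were 38 against 20.9 with complex III (1.82, 1.29 to 2.50), 11 against 4.49 with cytochrome c (2.45, 1.22 to 4.39) and 42 against 29.4 with ATP synthase (1.43, 1.03 to 1.93). They were 11 against 8.55 with the NADH dehydrogenases (1.29, 0.642 to 2.30), 24 against 20.6 with complex IV (1.17, 0.748 to 1.74) and 4 against 5.35 with complex II (0.748, 0.204 to 1.91), whose intervals include 1. All these values by complex are parts of the total by which HAP4 was picked, so their intervals do not account for that choice either. The general contact of its bin (1.13) is not taken out of them.

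The partners of HAP4 in the Hap complex did not share its level. HAP5 had O/E of 1.04 and 1.02 with the members, HAP3 had 1.10 and 0.902, and HAP2 had 0.869 and 0.862. HAP1, a heme-responsive activator, had 0.696 and 1.06, and ROX1, the repressor of hypoxic genes, had 0.901 and 1.13. The other bins among the 5 highest were that of INH1, the inhibitor of ATP synthase, and RPL41A (1.45 and 1.59), that of COX14, a complex IV assembly factor (1.50 and 1.45), that of RPS27B (1.34 and 1.57) and that of RPL20A (1.51 and 1.32). Only HAP4 of the 6 regulators was in this group.

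The member bins resembled other bins in the properties that set coverage. They held 20 to 44 DpnII sites with a median of 31, against a median of 30 over all kept bins, and median GC content was 38.7% against 38.3%. Contacts with other bins numbered 5874 and 5464 per member bin in the median of the 2 maps, against 5447 and 5077. Of these, a median of 32.5% and 32.2% went to other chromosomes, against 31.5% and 31.3%. The members thus had slightly more contacts and a slightly higher share between chromosomes, whose part in the O/E above 1 was not tested apart from the balance given above. Of the 16 nuclear chromosomes, 14 held a member, and chromosome IV held the most, with 8.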

How the data were processed

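Balanced 10 kb Hi-C maps of 2 replicates were used. The methods state biological replicates. The authors made them with HiC-Pro on sacCer3, per the labels, and the deposited signal per pair of bins is balanced within each library by iterative correction, which gives every bin the same total and leaves the share between chromosomes free to differ between bins. Chromosome lengths of R64 equal those of the deposited bins, and genes were taken from its RefSeq annotation. All 40 symbols matched.

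Each value times the factors of its 2 bins was whole to within 0.01, and these whole contacts were used for counts and intervals. Classes for the expectation had centromere distance edges at 0, 20, 50, 100, 200, 300 and 500 kb and a chromosome end edge at 30 kb. No comparison of groups was possible. Recovery of contacts and the Poisson test were tested on simulated data. Members, lists, classes and the naming rule were chosen with earlier results of these data known. Named are all members, the 8 highest and 4 lowest pairs between chromosomes whose maps did not lie on opposite sides of 1, all pairs under 100 kb, the 4 highest and 3 lowest farther pairs, the paralogs, and genes of other lists in the 5 highest bins. Alternatives changed the filter, balance, gene position, replicates, classes, summary and window. Python 3.11.15, NumPy 2.4.6, pandas 2.3.3, SciPy 1.17.1 and Matplotlib 3.10.9 were used.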

Additional observations from a re-analysis of the deposited data

Results flagged for a closer look

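The comparisons above leave out mitochondrial DNA, which the maps also list. For the mitochondrial bins given here, contacts summed over the member bins lay above the limit of 3 that a count of 0 allows. Mitochondrial bins that hold COX1, COX2, ATP6, ATP8 and OLI1 are not among them. The mitochondrial bin from 30001 to 40000, which holds part of COB, the cytochrome b gene of complex III, had 226 contacts with the 36 member bins in replicate 1 and 174 in replicate 2. That is 6.28 and 4.83 per member bin, against 6.14 and 4.87 per bin over all 1086 kept bins. The bin from 80001 to 85779, which holds the end of COX3, a core gene of complex IV, had 48 and 38 contacts with the member bins, which is 1.33 and 1.06 per bin against 1.20 and 0.984. Per bin, members and all bins differed by less than the difference between the maps.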

How the results depend on the processing

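Mean O/E among members between chromosomes (1.09) moved by more than the spread between maps to 1.05 with no filter on bins, 1.03 with the balance on contacts between chromosomes only, 1.05 with no distance classes, 1.01 as a median over pairs, 1.06 as summed signal, 1.05 over 3 by 3 bins and, in a choice made after seeing the data, 1.08 without bins holding a cytosolic ribosomal protein gene. It stayed above 1 in each and ranged from 1.08 to 1.10 with either replicate left out. For the median, 1 is not the reference. The median was 0.914 over all kept pairs and 0.971 over pairs of member bins with other kept bins. Pairs within a complex (1.13) gave 1.03 with no classes, 1.02 over 3 by 3 bins, and 1.08 to 1.18 with a replicate left out. Single pairs called (0) became 1 with no filter, ATP16 with QCR10, and remained 0 under the others run, including either replicate left out. Within chromosomes, leaving out a replicate gave 0.948 to 1.17, the same-chromosome expectation 0.987 and no filter 0.939. The median of member bins with the set (1.04) was 1.05 with either replicate left out, and 1.02 after division by general contact, also chosen after seeing the data. With no classes, O/E with assembly factors was 1.09, with the mitochondrial ribosome 0.991 and with the cytosolic ribosome 1.12. Leaving out a replicate gave 1.02 to 1.13 for the TCA cycle, 0.968 to 1.16 for the regulators, 1.12 to 1.17 for assembly factors, 1.03 to 1.06 for the mitochondrial ribosome, 1.14 to 1.15 for the cytosolic ribosome and 0.999 to 1.12 for glycolysis. Of 200 values of 26 named pairs under alternatives, 9 crossed 1, in 6 pairs, among them CYC1 with CYC7 (0.857 with the balance between chromosomes) and NDE1 with NDE2 (0.917 over 3 by 3 bins). The causes were not tested. At about 3 expected contacts per pair, single pairs are known only to within a few contacts, and 2 maps of 1 strain and medium allow no statement about respiration. No paired analysis was possible because only 1 group was analysed.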

Other observations

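Groups of members on 1 chromosome, picked after their values were seen and given without a test, differed. On chromosome XIII, the 4 pairs on opposite arms, of NDI1 and ATP18 with NDE1 and COX7, had O/E of 1.73 and 1.98 with 34 contacts against 18.3 expected. All kept pairs on opposite arms at the members' distances had a mean of 1.10. That mean is over all chromosomes, and pairs of chromosome XIII alone were not summed, whereas the groups of chromosome IV below are set against pairs of chromosome IV. NDI1 with COX7 gave 12 of the 34 contacts, with O/E of 0.786 and 4.27. On chromosome IV, the 10 pairs on the right arm, among SDH4, ATP5, TIM11, ATP17 and QCR7, had 1.69 and 1.11 (209 contacts against 175), where all kept pairs of that arm at the members' distances had 1.09 and 1.08. The 10 pairs of NDE2 and COX9 on the left arm with these genes had 0.826 and 0.587 (36 against 48.2), where all kept pairs across the arms had 1.05 and 1.04.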
